A study of Homo sapiens with 18 samples.

Results

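The 4 fibroblast growth factor receptor genes (FGFR1, FGFR2, FGFR3 and FGFR4), the ligand gene FGF2 and the gene of the FGF-binding protein FGFBP1 were followed through an accessibility table of 115087 regions. A region belonged to a gene if it overlapped the gene body extended by 20 kb on both sides (GENCODE annotation on hg19, GRCh37), which gave 39 regions. FGFR2 on chromosome 10 held 15 of them, FGFR1 on chromosome 8 held 11, FGFBP1 and FGF2 on chromosome 4 held 5 and 4, FGFR3 on chromosome 4 held 3 and FGFR4 on chromosome 5 held 1. Regions are named by gene and by the distance in kb of the region centre from the canonical start of the gene (downstream positive), and the region at the start itself is called the start region. The table comes from ATAC-seq, where the transposase Tn5 places sequencing adapters into DNA that is not packed away, of the head and neck squamous cell carcinoma (HNSCC) lines SCC1, SCC6 and SCC25. Cells grown in DMEM and Ham's F12 with 10% fetal bovine serum had received cetuximab, a therapeutic antibody that blocks the epidermal growth factor receptor (EGFR), at 100 nM, or PBS as the untreated control, every day for 5 days. There were 3 cetuximab and 3 PBS libraries of SCC6 and of SCC25, and 3 cetuximab and 2 PBS libraries of SCC1, since SCC1 PBS replicate 2 was not analysed here. Each line is a single tumour-derived line, and no label says whether its replicates were separate cultures, so the p-values measure the spread between these libraries, which may be technical.

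FGF receptors are receptor tyrosine kinases that dimerise when an FGF ligand and heparan sulphate bind them, and they feed the same RAS-MAPK and PI3K cascades as EGFR. FGF2 is stored on heparan sulphate in the extracellular matrix, and FGFBP1 is a secreted carrier that frees it to reach its receptors. In squamous epithelium FGFR2 and FGFR3 are the usual epithelial receptors, FGFR1 is more typical of mesenchymal cells, and signalling through FGFR1 and FGF2 is a well-known bypass route in tumours treated with EGFR inhibitors. The study asked which chromatin changes arise within days of EGFR blockade, and for these genes the questions are whether cetuximab altered accessibility in each line, and how far the lines differed to begin with.

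Deposited values are scaled signals, in which each library's whole reads per region are multiplied by a constant of that library, and log2 differences are from log2(signal + 1). The libraries held 2194851 to 15017130 reads in regions, with at most 4171650 in SCC1, and 7.14% to 28.8% of all regions stood at the lowest value of 1 read. Over the 39 FGF-related regions, a library had a median of 25 reads per region (range 1 to 632), and 7.54% of the values were at 1 read. The 8 squamous markers all had a promoter region in the table, and all were open in SCC1 and SCC25. In SCC6 PBS the promoters of KRT14 (1.09 to 2.68) and DSG3 (0.669 to 1.21) were at or near the floor, against 35.1 to 42.4 and 36.4 to 49.1 in SCC1 PBS, while CDH1 and DSP were open (64.9 to 93.0 and 137 to 194). PKP1 was also low in SCC6 PBS (3.35 to 9.79, against 50.7 to 83.7 in SCC1 PBS). In SCC6 PBS against SCC1 PBS, limma called 6 of the 8 squamous promoters lower and 0 higher. Of the 5 fibroblast markers, 4 had a promoter region, of which DCN was near the floor in the PBS libraries and COL1A1 and TWIST1 were open in every line, and 0 of 4 leukocyte markers had one. COL1A2 was lower in SCC6 PBS (3.62 to 17.4) than in SCC1 PBS (33.8 to 44.7). These genes were named after their values were seen. Some of these promoters also moved with cetuximab: in SCC6, KRT5 was higher (log2 0.93, adjusted p = 0.0125) and CDH1 and DSP were lower (log2 -0.60 and -0.42, adjusted p = 0.0282 and 0.0213), and in SCC1, PKP1 (log2 1.013, adjusted p = 0.00228) and COL1A1 (log2 0.66, adjusted p = 0.0382) were higher. The part of such shifts in the results was not tested.

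The sequences below are the middle 300 bases of the regions on which the results turn, from hg19 on the + strand, 5′ to 3′, in lower case. Matches to short motifs are in capitals: TGANTCA (AP-1, the FOS and JUN dimers), GCCNNNGGC (TFAP2), GGAATG or its complement CATTCC (TEAD, the DNA-binding partners of YAP and TAZ) and GGGCGG or its complement (SP1). FGFR2 +44.5 kb (chr10:123313310-123313609) and FGFR2 +86.2 kb (chr10:123271559-123271858) lie in introns of FGFR2 and were higher after cetuximab in SCC6. FGFR2 -12.8 kb (chr10:123370595-123370894) lies upstream of FGFR2 and was lower after cetuximab in SCC1. FGF2 +16.4 kb (chr4:123764265-123764564) lies in an intron of FGF2 and was higher after cetuximab in SCC6. FGFBP1 +20.1 kb (chr4:15920078-15920377) and FGFBP1 +17.2 kb (chr4:15922971-15923270) lie downstream of FGFBP1 and differed between the lines.
FGFR2 +44.5 kb: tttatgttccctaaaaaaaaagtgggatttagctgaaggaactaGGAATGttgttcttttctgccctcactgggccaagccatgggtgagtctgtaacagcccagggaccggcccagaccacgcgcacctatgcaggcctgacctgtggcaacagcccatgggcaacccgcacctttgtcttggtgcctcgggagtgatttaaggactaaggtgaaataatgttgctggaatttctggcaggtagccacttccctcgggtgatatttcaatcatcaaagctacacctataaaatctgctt
FGFR2 +86.2 kb: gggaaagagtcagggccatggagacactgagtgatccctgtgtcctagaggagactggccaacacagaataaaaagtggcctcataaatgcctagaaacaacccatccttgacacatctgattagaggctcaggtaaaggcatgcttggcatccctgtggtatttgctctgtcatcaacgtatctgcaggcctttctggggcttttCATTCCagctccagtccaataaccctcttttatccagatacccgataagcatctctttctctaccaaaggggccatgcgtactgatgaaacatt
FGFR2 -12.8 kb: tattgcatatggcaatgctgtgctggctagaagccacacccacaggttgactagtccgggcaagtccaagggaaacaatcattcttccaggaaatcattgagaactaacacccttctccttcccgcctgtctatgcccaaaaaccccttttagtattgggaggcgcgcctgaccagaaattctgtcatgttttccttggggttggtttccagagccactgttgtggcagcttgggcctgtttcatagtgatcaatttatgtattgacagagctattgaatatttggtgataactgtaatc
FGF2 +16.4 kb: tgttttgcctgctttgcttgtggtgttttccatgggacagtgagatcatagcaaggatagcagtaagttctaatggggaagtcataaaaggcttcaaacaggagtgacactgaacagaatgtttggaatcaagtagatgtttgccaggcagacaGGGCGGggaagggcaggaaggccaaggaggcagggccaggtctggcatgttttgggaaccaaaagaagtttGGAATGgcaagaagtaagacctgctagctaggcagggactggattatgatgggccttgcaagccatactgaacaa
FGFBP1 +20.1 kb: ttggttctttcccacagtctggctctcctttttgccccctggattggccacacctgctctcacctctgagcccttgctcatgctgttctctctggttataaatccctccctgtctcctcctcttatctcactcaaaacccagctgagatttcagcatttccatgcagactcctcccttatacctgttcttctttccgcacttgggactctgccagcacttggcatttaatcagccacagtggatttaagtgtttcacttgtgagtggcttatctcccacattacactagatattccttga
FGFBP1 +17.2 kb: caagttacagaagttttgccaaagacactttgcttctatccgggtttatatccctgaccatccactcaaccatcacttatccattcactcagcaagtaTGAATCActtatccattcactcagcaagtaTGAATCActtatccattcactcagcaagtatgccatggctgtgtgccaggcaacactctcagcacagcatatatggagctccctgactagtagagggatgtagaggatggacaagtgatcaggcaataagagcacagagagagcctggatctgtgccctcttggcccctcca

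The motifs were searched on both strands in the 300 bases at the middle of every region. GGAATG was found in 12 of the 39 FGF-related windows and in 21.9% of all windows, TGANTCA in 10 and in 31.4%, GGGCGG in 11 and in 15.3%, and GCCNNNGGC in 5 and in 11.8%. Among the 6 FGFR2 regions that were higher after cetuximab in SCC6, 5 held GGAATG and 1 held TGANTCA, and each motif was in 1 of the other 9 FGFR2 regions. For both motifs that other region was FGFR2 +18.6 kb, which held 2 TEAD matches and was lower after cetuximab in SCC6 (log2 -0.55). The SP1 motif was in 2 of the 6 and 3 of the other 9, and the TFAP2 motif in 0 and 2. Of the 6, FGFR2 +70.6 and +138.4 kb are in the region set only through peaks of SCC6 cetuximab libraries. At FGFR2 +44.5 kb the TEAD match lies at chr10:123313354-123313359 and at FGFR2 +86.2 kb at chr10:123271765-123271770. FGFBP1 +17.2 kb held 2 matches of TGANTCA , and neither FGFR2 -12.8 kb nor FGFBP1 +20.1 kb held any of the 4 motifs. Matches of different motifs overlapped at FGFR2 +18.6 kb (AP-1 and TEAD) and at FGFR2 -10.4 kb (SP1 and TFAP2). These are matches of letters only, and no binding was measured.

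After cetuximab the FGF-related regions changed most often in SCC6, and most of the changed regions belonged to FGFR2. limma with Benjamini-Hochberg adjustment over all tested regions (adjusted p under 0.05) called 12 of 31 tested FGF-related regions in SCC6, 9 higher and 3 lower, against 16.9% of all tested regions called higher and 10.6% called lower. In SCC1 it called 3 of 36, 2 higher and 1 lower, against 4.57% and 6.56% of all regions. In SCC25 it called 0 of 33, against 0.315% of all regions. In SCC25, 2 had an unadjusted p under 0.05, and edgeR and DESeq2 on the recovered reads also called 0. The median log2 change of the tested FGF-related regions was -0.02 in SCC6, -0.06 in SCC1 and -0.06 in SCC25, beside 0.11, -0.09 and -0.08 over all tested regions. The regions below the filter on low signal (8 in SCC6, 3 in SCC1 and 6 in SCC25) were not tested there, and without that filter SCC6 had 13 of 39 called, 9 higher and 4 lower. Among the regions called higher in SCC6, FGFR2 +70.6 kb and FGF2 +16.4 kb passed the filter only through their treated libraries. These 2 regions, FGFR2 +138.4 kb, FGF2 +87.8 kb and FGFR1 +66.9 kb had peaks called in SCC6 cetuximab libraries only. The region set thus holds them through the group in which they stood higher.

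The split between directions over the whole table depended on the scaling. Centring each library on its median shifted the median log2 change of all regions by -0.18 in SCC6 and by 0.21 in SCC1, and quantile normalization shifted that of SCC6 by -0.12. In SCC6, 14622 regions were higher and 9152 lower as deposited, 10174 and 16459 after centring, and 11335 and 12369 after quantile normalization. In SCC1 the split was 3949 and 5664 as deposited and 7259 and 3531 after centring. Among the FGF-related regions in SCC6, 9 were higher under each of the 3 scalings, and 3 or 4 were lower. With the trend over GC content removed, 9 were higher and 0 lower in limma, and with all libraries in 1 fit 5 were higher and 3 lower. Promoter regions and other regions also moved apart, with a median log2 change in SCC6 of -0.11 for promoter regions and 0.22 for the others, and in SCC1 of 0.18 and -0.17.

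When the 3 lines were fitted together, with a term for each line, limma called 4 of 35 tested regions, 2 higher and 2 lower, against 5.14% and 7.04% of all regions. FGFR2 +86.2 kb was higher (log2 1.05, SE 0.26, adjusted p = 0.0122), and so was FGFR1 +66.9 kb (log2 1.15, SE 0.33, adjusted p = 0.0230), though not without SCC1 PBS replicate 3 (log2 0.77). FGFR1 +63.3 kb (log2 -0.81, SE 0.22, adjusted p = 0.0204) and FGFR2 +18.6 kb (log2 -0.39, SE 0.11, adjusted p = 0.0183) were lower, and the call at the latter was lost after centring on the library median (adjusted p = 0.0616) and with the GC trend removed (adjusted p = 0.0638). The effect of cetuximab differed between the lines at 3 of 35 regions by the F-test of the interaction in limma, against 13.2% of all regions, and all 3 belonged to FGFR2.

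FGF2 had no region of the table within 1 kb of its start. A called peak lay within 1 kb of its start in 1 of 17 libraries, SCC6 cetuximab replicate 3, which was the most deeply sequenced. Of its 4 regions, 2 rose after cetuximab in SCC6. At FGF2 +16.4 kb, in an intron, the SCC6 cetuximab libraries had signals of 12.1, 25.1 and 28.1 and the SCC6 PBS libraries had 2.42, 8.03 and 5.44 (2 to 12 reads). The groups did not overlap, and the 11 libraries of the other lines stood at 4.22 or lower. The log2 change in SCC6 was 1.88 (SE 0.49, adjusted p = 0.00268), and it passed the test under all 14 alternatives in which the region was tested. The PBS mean of this region was below the lowest mean signal tested in SCC6 (7.80), so the region was tested only because of its treated libraries. In the other lines it was below the filter. Its peaks were called only in 2 SCC6 cetuximab libraries.

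FGF2 +87.8 kb lies past the 3′ end of FGF2 and within the neighbouring gene NUDT6. In SCC6 its signals were 20.2, 35.3 and 26.8 with cetuximab and 19.3, 6.69 and 11.96 with PBS. The groups did not overlap, although the highest PBS library came close to the lowest treated one, and the log2 change was 1.13 (SE 0.37, adjusted p = 0.0184). Without SCC6 PBS replicate 2 the log2 change was 0.77, and without that library, cetuximab replicate 2 or cetuximab replicate 3 it no longer passed. In SCC1 and SCC25 the log2 change was 0.11 (adjusted p = 0.942) and 0.02 (adjusted p = 0.991). Peaks at FGF2 +87.8 kb were called only in 2 SCC6 cetuximab libraries, so the region set holds it through that group.

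FGF2 +71.8 kb, also within NUDT6, had the highest mean log2 signal of the FGF2 regions. In SCC1 it stood at 22.8, 27.3 and 32.9 with cetuximab and at 46.8 and 53.6 with PBS, groups that did not overlap, but the log2 change of -0.85 (SE 0.39) did not pass the test (adjusted p = 0.148). In SCC6 and SCC25 the treated and untreated libraries overlapped. Between the PBS libraries it was higher in SCC25 (67.5, 65.6 and 50.05) than in SCC6 (39.9, 30.1 and 31.5), with a log2 difference of 0.83 (SE 0.22, adjusted p = 0.00304) that was 0.46 relative to the surrounding locus and no longer passed (adjusted p = 0.0800). FGF2 +47.3 kb, in an intron, had overlapping treated and untreated libraries in every line (adjusted p from 0.533 to 0.791).

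FGFBP1 set SCC1 apart from the other lines and passed no test of cetuximab in any line. Its start region (chr4:15939765-15940163, in exon 2, untranslated) had signals of 168 and 182 in SCC1 PBS, 38.7, 46.2 and 40.2 in SCC6 PBS and 45.6, 38.9 and 33.1 in SCC25 PBS. SCC1 was above every library of the other lines, which overlapped with each other. The log2 difference was -2.05 for SCC6 against SCC1 (SE 0.21, adjusted p = 5.94e-07) and -2.14 for SCC25 against SCC1 (SE 0.21, adjusted p = 1.07e-06), and -0.09 for SCC25 against SCC6 (SE 0.19, adjusted p = 0.673). With cetuximab the signals were 162, 164 and 153 in SCC1, 25.3, 40.8 and 39.0 in SCC6 and 35.2, 49.5 and 42.5 in SCC25. The cetuximab log2 change was -0.13 (SE 0.21, adjusted p = 0.766) in SCC1, -0.27 (SE 0.26, adjusted p = 0.451) in SCC6 and 0.11 (SE 0.25, adjusted p = 0.893) in SCC25.

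The regions downstream of FGFBP1 followed the same order of lines. FGFBP1 +20.1 kb, which belongs to no gene body and was named after its values were seen, stood at 96.3 and 118 in SCC1 PBS and at 76.2, 64.2 and 70.4 in SCC1 cetuximab. In the 12 libraries of SCC6 and SCC25 it did not exceed 6.28, with log2 differences between PBS libraries of -4.83 (SCC6 against SCC1, SE 0.41, adjusted p = 7.19e-08) and -4.77 (SCC25 against SCC1, SE 0.41, adjusted p = 2.95e-07). Its only peaks were in the 2 SCC1 PBS libraries, so the region set holds it through the group in which it stood high. FGFBP1 +17.2 kb stood at 148 and 137 in SCC1 PBS, at 66.5, 58.9 and 42.4 in SCC6 PBS and at 36.6, 36.8 and 38.2 in SCC25 PBS. Every step of this order passed the test, with log2 differences of -1.36 (SCC6 against SCC1, adjusted p = 6.24e-05), -1.91 (SCC25 against SCC1, adjusted p = 4.29e-06) and -0.55 (SCC25 against SCC6, adjusted p = 0.0204), of which the last was lost relative to the surrounding locus (log2 -0.21) and without SCC6 PBS replicate 1 or 2. FGFBP1 +2.0 kb, in exon 3 and also named after its values were seen, broke the order. It was at 0.669 to 2.42 in every SCC6 library, at 28.0 to 46.0 in SCC25 and at 12.7 to 61.2 in SCC1, so SCC6 was closed there and the other lines overlapped (SCC25 against SCC6 log2 4.05, adjusted p = 3.05e-07, and SCC25 against SCC1 log2 -0.44, adjusted p = 0.438). Its peaks were called only in SCC25 libraries, so the region set holds it through SCC25. In SCC1, FGFBP1 +20.1 kb and FGFBP1 +17.2 kb were lower in all 3 cetuximab libraries than in both PBS libraries, with log2 changes of -0.60 (adjusted p = 0.140) and -0.48 (adjusted p = 0.196).

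**Figure D1:**
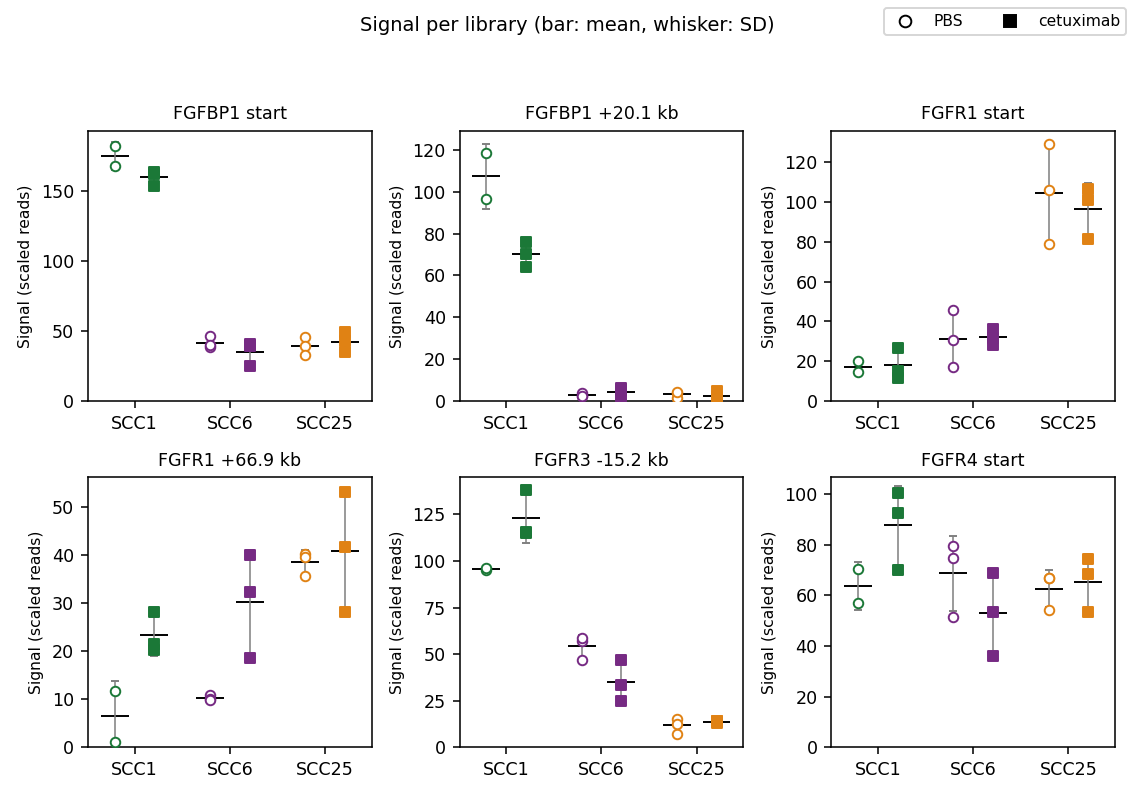
Scaled signal (y axis, scaled reads) of 6 regions of FGFBP1, FGFR1, FGFR3 and FGFR4 in each of the 17 libraries, by line (x axis), with open circles for PBS, filled squares for cetuximab, bars for the mean and whiskers for the SD. FGFBP1 stands high in SCC1, the FGFR1 start in SCC25 and FGFR3 -15.2 kb in SCC1, while the FGFR4 start lies between 36.2 and 100.3 in every library.

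FGFR1 was most accessible in SCC25 and its start region did not pass the test of cetuximab in any line. The start region (chr8:38326002-38326330, exon 1, untranslated) had signals of 106, 129 and 78.9 in SCC25 PBS, 16.9, 30.8 and 45.7 in SCC6 PBS and 14.3 and 20.1 in SCC1 PBS. SCC25 lay above all libraries of the other lines, and SCC6 overlapped with SCC1. The log2 difference was 2.53 for SCC25 against SCC1 (SE 0.35, adjusted p = 3.02e-05), 1.80 for SCC25 against SCC6 (SE 0.32, adjusted p = 0.000119) and 0.73 for SCC6 against SCC1 (SE 0.35, adjusted p = 0.0866). Relative to the surrounding locus, the first was 1.09 (adjusted p = 0.0190) and the second 0.64, which no longer passed (adjusted p = 0.0884). With cetuximab it stood at 81.6, 107 and 101 in SCC25, 28.3, 31.6 and 36.4 in SCC6 and 15.2, 11.7 and 26.6 in SCC1. Each treated group overlapped with its untreated group, with log2 changes of -0.10 (SE 0.19, adjusted p = 0.864), 0.14 (SE 0.30, adjusted p = 0.748) and -0.01 (SE 0.56, adjusted p = 0.994). A called peak lay within 1 kb of the start in 11 libraries.

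Inside the annotated FGFR1 body but past the canonical transcript, FGFR1 +66.9 kb (chr8:38259116-38259432), which also overlaps the neighbouring gene LETM2, rose after cetuximab in 2 lines. In SCC6 its signals were 32.3, 18.6 and 40.0 with cetuximab and 10.9, 10.0 and 9.79 with PBS, without overlap, and the log2 change was 1.41 (SE 0.36, adjusted p = 0.00243). In SCC1 they were 20.3, 21.4 and 28.2 against 11.7 and 1.12, again without overlap (log2 2.21, SE 0.66, adjusted p = 0.0135). The SCC1 value rested on PBS replicate 3, which held 1 read, and without that library the log2 change was 0.92 (adjusted p = 0.529). In SCC25 the region was already at 40.3, 39.7 and 35.6 with PBS and at 28.1, 41.7 and 53.1 with cetuximab, which overlapped (log2 0.04, SE 0.26, adjusted p = 0.964). The interaction at this region had an adjusted p of 0.0671, so a difference between the lines in its response was not shown. Peaks at this region were called only in 2 SCC6 cetuximab libraries, so the region set holds it through that group.

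FGFR1 +63.3 kb, a promoter region of LETM2, was lower in the fit of all lines. It stood at 12.7, 17.5 and 6.26 with cetuximab against 29.9 and 38.0 with PBS in SCC1, at 11.1, 13.0 and 23.5 against 21.7, 28.1 and 22.8 in SCC6, and at 57.7, 59.9 and 49.6 against 81.4, 72.1 and 69.6 in SCC25. The groups were apart in SCC1 and SCC25 and overlapped in SCC6, and in no single line did the change pass the test (adjusted p = 0.0530 in SCC1, 0.162 in SCC6 and 0.376 in SCC25). Without SCC1 PBS replicate 3 the log2 change over all lines was -0.69 and no longer passed. FGFR1 +86.1 kb, the promoter region of NSD3 and the FGFR1 region of highest mean log2 signal, had adjusted p-values of 0.536 to 0.869 for cetuximab in the 3 lines. FGFR1 +3.2 kb, in the first intron and named after its values were seen, was at 0.669 to 1.98 in all SCC6 libraries and at 33.2, 33.9 and 51.7 in SCC25 PBS (log2 4.33, SE 0.36, adjusted p = 3.34e-08). Its peaks were called only in SCC25 PBS libraries, so the region set holds it through the group in which it stood high.

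FGFR2, the epithelial receptor, held 8 of the 12 FGF-related regions called in SCC6. Of its 13 regions tested there, 6 rose and 2 fell, and the 6 that rose all lay in introns or downstream of the gene, at +20.7, +44.5, +70.6, +86.2, +102.5 and +138.4 kb. Of these, FGFR2 +70.6 kb passed the filter on low signal only through its treated libraries. FGFR2 +70.6 and +138.4 kb are also in the region set only through peaks of SCC6 cetuximab libraries. The 2 that fell were the start region and FGFR2 +18.6 kb. The median log2 change of the 13 regions was 0.65, beside -0.18 for the 78 other tested regions within 1 Mb of the gene (quartiles -0.60 and 0.63). In SCC1, 1 of 13 was higher and 1 lower, with a median of -0.13 beside -0.46 for the surroundings, and in SCC25 0 of 11 passed, with a median of 0.09 beside -0.12.

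**Figure D2:**
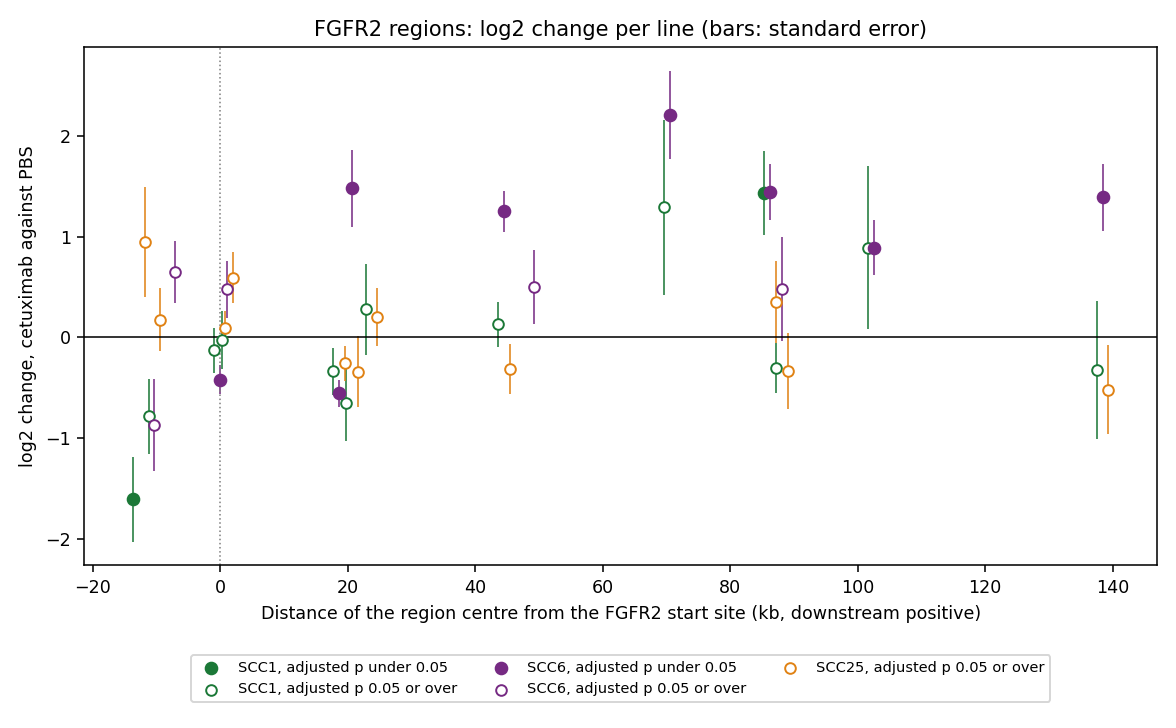
Log2 change of each tested FGFR2 region after cetuximab (y axis, with the SE as bars) against the distance of its centre from the FGFR2 start (x axis, kb, downstream positive), in SCC1 (green), SCC6 (purple) and SCC25 (orange), with filled points for an adjusted p under 0.05. In SCC6 the filled points between +20.7 and +138.4 kb lie above 0 and those at +18.6 kb and at the start below it, and SCC25 has no filled point.

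FGFR2 +44.5 kb (chr10:123313185-123313735) showed the clearest change. In SCC6 its signals were 115, 91.9 and 109 with cetuximab and 39.9, 48.8 and 42.4 with PBS, so every treated library lay far above every untreated one, and the log2 change was 1.25 (SE 0.20, adjusted p = 3.45e-06). In SCC1 it stood at 141, 134 and 149 with cetuximab and 116 and 144 with PBS, and in SCC25 at 35.2, 61.9 and 37.2 against 56.1, 61.3 and 45.8, and in both lines the groups overlapped. The log2 change was 0.13 (SE 0.23, adjusted p = 0.788) in SCC1 and -0.31 (SE 0.25, adjusted p = 0.614) in SCC25. The change differed between the lines (interaction adjusted p = 0.00166). The PBS libraries of SCC6 were below those of SCC1 (log2 -1.55, SE 0.21, adjusted p = 1.19e-05, and log2 -0.53 relative to the surrounding locus, adjusted p = 0.0413), so the treated SCC6 libraries lay between SCC6 PBS and SCC1. Neither the change in SCC6 nor the interaction lost its call in any alternative run.

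FGFR2 +86.2 kb rose in 2 lines. In SCC6 its signals were 48.5, 55.7 and 63.1 with cetuximab and 30.2, 16.7 and 15.2 with PBS (log2 1.44, SE 0.28, adjusted p = 8.38e-05). In SCC1 they were 48.2, 48.7 and 37.6 against 24.7 and 10.0 (log2 1.43, SE 0.42, adjusted p = 0.0119). The groups did not overlap in either line. In SCC25 they were 40.8, 24.7 and 10.6 against 21.5, 18.7 and 12.7, which overlapped (log2 0.35, SE 0.41, adjusted p = 0.762), and the interaction had an adjusted p of 0.291. In SCC1 the call was lost with DESeq2, without cetuximab replicate 1 and without PBS replicate 3, and in the last case the log2 change was 0.82.

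The other 4 FGFR2 regions that rose in SCC6 are described because they complete the set of called regions. FGFR2 +70.6 kb went from 2.42, 10.0 and 5.44 with PBS to 27.3, 25.1 and 31.4 with cetuximab (log2 2.21, SE 0.44, adjusted p = 0.000110). The untreated libraries held 2 to 15 reads, the PBS mean was below the lowest mean signal tested, and the region did not exceed 6.35 in the other lines. FGFR2 +20.7 kb went from 8.46, 10.7 and 6.53 to 21.2, 25.1 and 30.1 (log2 1.48, SE 0.39, adjusted p = 0.00291). In the other lines it was open without cetuximab, at 39.0 and 63.6 in SCC1 and 23.7, 22.4 and 23.8 in SCC25, and the log2 changes there were -0.65 (adjusted p = 0.285) and -0.34 (adjusted p = 0.716), so that the response differed between lines (interaction adjusted p = 0.0191). FGFR2 +138.4 kb went from 10.9, 10.7 and 16.3 to 25.3, 42.7 and 36.7 (log2 1.39, SE 0.33, adjusted p = 0.00120). Its only peaks were in the 3 SCC6 cetuximab libraries, so the region set holds it through the group in which it stood higher. FGFR2 +102.5 kb went from 43.5, 22.1 and 21.8 to 51.5, 43.6 and 62.2, where the highest untreated library nearly reached the lowest treated one (log2 0.89, SE 0.27, adjusted p = 0.0117). This last call was lost under 5 of 15 alternatives, among them leaving out SCC6 cetuximab replicate 3, PBS replicate 2 or PBS replicate 3.

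The 2 FGFR2 regions that fell in SCC6 had the highest mean log2 signal of the 15 over all libraries. The start region (chr10:123357839-123358310, exon 1, untranslated) had signals of 148, 130.0 and 102 with cetuximab and 163, 151 and 194 with PBS in SCC6 (log2 -0.42, SE 0.14, adjusted p = 0.0243). FGFR2 +18.6 kb (chr10:123339139-123339544) had 125, 154 and 134 against 229.6, 217 and 165 (log2 -0.55, SE 0.13, adjusted p = 0.00131). Neither pair of groups overlapped. With the trend of each library's log2 signal over GC content removed, the log2 change was -0.08 at the start region (adjusted p = 0.805) and -0.36 at FGFR2 +18.6 kb (adjusted p = 0.0618), and neither passed. The call at the start region was also lost without SCC6 cetuximab replicate 3 (log2 -0.28) and without PBS replicate 3 (log2 -0.32). In SCC6, 3.77% of all promoter regions were called higher and 10.9% lower. In SCC1 the start region stood at 138, 136 and 127 against 155 and 138 (adjusted p = 0.781), and in SCC25 at 111, 146 and 97.4 against 114, 125 and 92.5 (adjusted p = 0.872).

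FGFR2 -12.8 kb, upstream of the gene, fell after cetuximab in SCC1. Its signals there were 24.1, 15.6 and 17.2 with cetuximab and 61.2 and 56.9 with PBS, far apart (log2 -1.61, SE 0.42, adjusted p = 0.00359). The call was lost without either PBS library, which leaves 1 library in that group, with log2 changes of -1.56 and -1.66. In SCC25 the signals were 14.1, 11.1 and 12.4 against 7.91, 2.16 and 11.0, where every treated library was above every untreated one (log2 0.95, SE 0.55, adjusted p = 0.471). In SCC6 they were 4.04, 4.64 and 4.96 against 9.67, 8.70 and 6.53, where every treated library was below every untreated one, but the mean over the 6 libraries was below the filter and the region was not tested in that line. The change differed between the lines (interaction adjusted p = 0.0232), and this call was lost without SCC25 PBS replicate 2. Peaks at this region were called only in the 2 SCC1 PBS libraries. The region set thus holds it through the group in which it stood high, and both calls draw on those libraries.

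**Figure D3:**
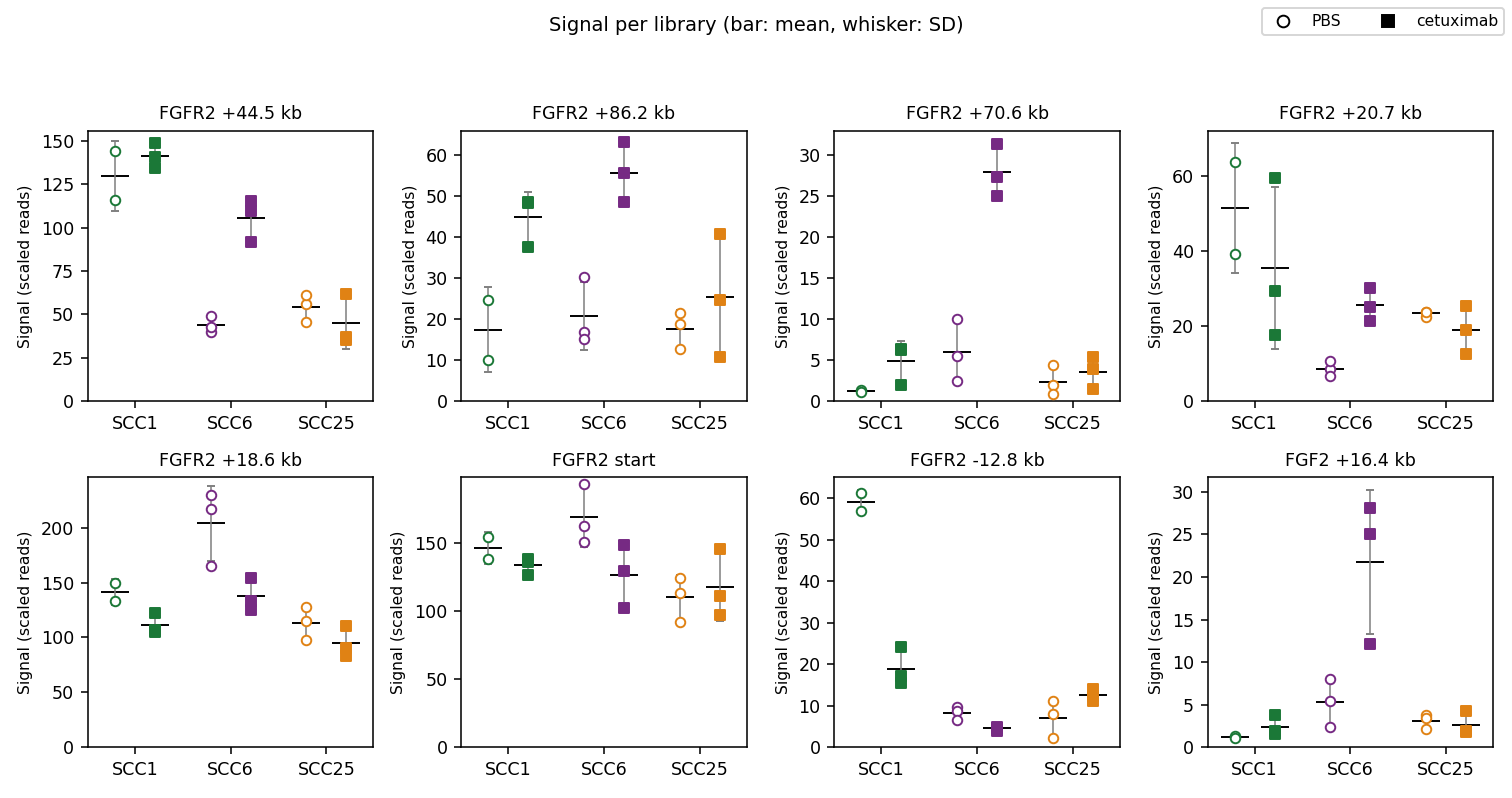
Scaled signal (y axis, scaled reads) of 7 FGFR2 regions and 1 FGF2 region in each of the 17 libraries, by line (x axis), with open circles for PBS, filled squares for cetuximab, bars for the mean and whiskers for the SD. In SCC6 the treated libraries lie above the untreated ones at FGFR2 +44.5, +86.2, +70.6 and +20.7 kb and at FGF2 +16.4 kb, and below them at FGFR2 +18.6 kb and the FGFR2 start.

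Without treatment the 3 lines differed in which FGFR2 elements were open. At the start region the PBS means were 169 ± 21.9 in SCC6 (SD, n = 3), 147 ± 11.6 in SCC1 (n = 2) and 110.3 ± 16.4 in SCC25 (n = 3). SCC25 was below SCC6 (log2 -0.62, SE 0.14, adjusted p = 0.00136) and below SCC1 (log2 -0.42, SE 0.16, adjusted p = 0.0420), and SCC6 and SCC1 overlapped (log2 0.20, SE 0.16, adjusted p = 0.297). The difference between SCC25 and SCC1 was lost under 8 of 16 alternatives, among them relative to the locus (log2 -0.20) and without SCC1 PBS replicate 1 or 3 or SCC25 PBS replicate 1 or 3. Other elements, named after their values were seen, were near the floor in some lines. FGFR2 +88.1 kb stood at 92.4 and 153 in SCC1 PBS, at 25.6, 23.8 and 15.3 in SCC25 PBS and at 8.46, 7.36 and 5.44 in SCC6 PBS, and every step of this order passed (log2 -3.91 for SCC6 against SCC1, -2.44 for SCC25 against SCC1 and 1.47 for SCC25 against SCC6, adjusted p = 2.42e-07, 6.63e-05 and 0.00110). FGFR2 -7.2 kb was at 16.1 to 53.5 in SCC6 and at most 4.70 in the other lines, and FGFR2 +49.2 kb at 10.9 to 22.2 and at most 5.31. FGFR2 +23.7 kb had the opposite pattern, at most 5.44 in SCC6 and at least 20.3 in the other lines. Peaks at FGFR2 -7.2 and +49.2 kb were called only in SCC6 libraries, and at FGFR2 +23.7 kb only in SCC25 libraries. The region set thus holds each of these regions through a line in which it stood high.

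FGFR3 had no region of the table within 1 kb of its start, and its start lay under a called peak in 0 of 17 libraries. FGFR3 -15.2 kb (chr4:1779568-1779992), upstream of the gene, had PBS signals of 95.0 and 96.0 in SCC1, 56.8, 46.8 and 58.7 in SCC6 and 15.5, 7.21 and 12.7 in SCC25. No line overlapped with another, and the log2 differences were -0.81 for SCC6 against SCC1 (SE 0.31, adjusted p = 0.0320), -2.97 for SCC25 against SCC1 (SE 0.31, adjusted p = 1.72e-06) and -2.16 for SCC25 against SCC6 (SE 0.28, adjusted p = 4.45e-06). The first of these was lost under 5 of 16 alternatives, among them relative to the locus (log2 -0.29, adjusted p = 0.426) and without SCC1 PBS replicate 1 or 3 or SCC6 PBS replicate 2. With cetuximab it stood at 33.3, 25.1 and 46.6 in SCC6, below every untreated library, and the log2 change of -0.65 (SE 0.25, adjusted p = 0.0490) was just past the threshold and did not pass under 10 of 15 alternatives. In SCC1 it stood at 138, 115 and 116, above both untreated libraries, with a log2 change of 0.36 (SE 0.24, adjusted p = 0.384). In SCC25 the groups overlapped (log2 0.26, SE 0.45, adjusted p = 0.848), and the interaction had an adjusted p of 0.155.

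FGFR3 -3.5 kb, named after its values were seen, stood in SCC1 at 74.9, 70.1 and 81.4 with cetuximab and at 26.0 and 64.8 with PBS (log2 0.86, SE 0.31, adjusted p = 0.0522), with the treated libraries above the untreated ones. Its PBS signals were 6.04, 12.04 and 9.79 in SCC6 and 26.8, 23.8 and 28.8 in SCC25, and SCC6 was below both SCC1 (log2 -2.08, adjusted p = 0.000550) and SCC25 (log2 difference of SCC25 against SCC6 1.46, adjusted p = 0.00307). FGFR3 +17.0 kb, downstream of the gene, had overlapping treated and untreated libraries in every line (adjusted p from 0.233 to 0.930).

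FGFR4 held 1 region, at its start (chr5:176513536-176514212, exon 1, untranslated), and no comparison called it. Its PBS signals were 70.3 and 56.9 in SCC1, 74.9, 51.5 and 79.4 in SCC6 and 66.7, 54.1 and 67.0 in SCC25, which overlapped throughout. The differences between lines had a log2 of 0.09 (SCC6 against SCC1, SE 0.23), -0.02 (SCC25 against SCC1, SE 0.23) and -0.11 (SCC25 against SCC6, SE 0.20), with adjusted p from 0.637 to 0.944. With cetuximab the signals were 100.3, 70.1 and 92.3 in SCC1, 53.5, 36.2 and 68.8 in SCC6 and 53.4, 68.4 and 74.4 in SCC25. The groups overlapped in each line, with log2 changes of 0.45 (SE 0.28, adjusted p = 0.331), -0.39 (SE 0.23, adjusted p = 0.200) and 0.06 (SE 0.21, adjusted p = 0.937).

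Between the PBS libraries of the lines, differences at the FGF-related regions were common, as they were over the whole table. In SCC6 against SCC1, 20 of 35 tested regions were called, 3 higher and 17 lower, against 30.7% and 30.5% of all regions. In SCC25 against SCC1, 21 of 35 were called, 9 higher and 12 lower, against 28.2% and 23.1%. In SCC25 against SCC6, 22 of 35 were called, 17 higher and 5 lower, against 36.7% and 32.1%. These comparisons share the same PBS libraries. All 9 regions that were higher in SCC25 than in SCC1 belonged to FGFR1, and 11 of 11 FGFR1 regions were higher in SCC25 than in SCC6. Of the FGFR1 regions, only FGFR1 +37.3 kb, FGFR1 +3.2 kb and the start region overlap no neighbouring gene. FGFR1 +86.1 kb is a promoter region of NSD3, and FGFR1 +82.3, +70.9, +64.4 and +63.3 kb are promoter regions of LETM2. These counts are thus not of FGFR1 alone. Peaks at FGFR1 +69.8, +59.0, +37.3 and +3.2 kb were called only in SCC25 libraries. The region set thus holds these regions through SCC25, and their higher signal there is no separate support for a difference.

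Whole stretches of chromosome moved with some of the genes. In SCC25 against SCC1, the 96 other tested regions within 1 Mb of FGFR1 had a median log2 difference of 1.29, beside 1.65 for the FGFR1 regions. In SCC25 against SCC6 the values were 1.40 and 1.81. For FGFBP1 the 50 surrounding regions had a median of -0.92 beside -2.05 (SCC6 against SCC1) and -1.16 beside -1.91 (SCC25 against SCC1). Around FGFR2, 87 regions had a median of -1.07 beside -1.48 in SCC6 against SCC1, and around FGFR3, 52 regions had -0.91 beside -0.94 in SCC25 against SCC1. Set relative to the locus, the FGFR1 start still differed between SCC25 and SCC1 (log2 1.09, adjusted p = 0.0190) but no longer between SCC25 and SCC6 (log2 0.64, adjusted p = 0.0884), and the difference at FGFR1 +86.1 kb (SCC25 against SCC1 log2 1.34) turned to -0.10 (adjusted p = 0.655). Relative to the locus, 12 regions were called in SCC25 against SCC1, 14 in SCC25 against SCC6 and 22 (6 higher and 16 lower) in SCC6 against SCC1. DNA copy number was not measured here, so more copies of a segment and more open chromatin cannot be told apart in these comparisons.

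**Figure D4:**
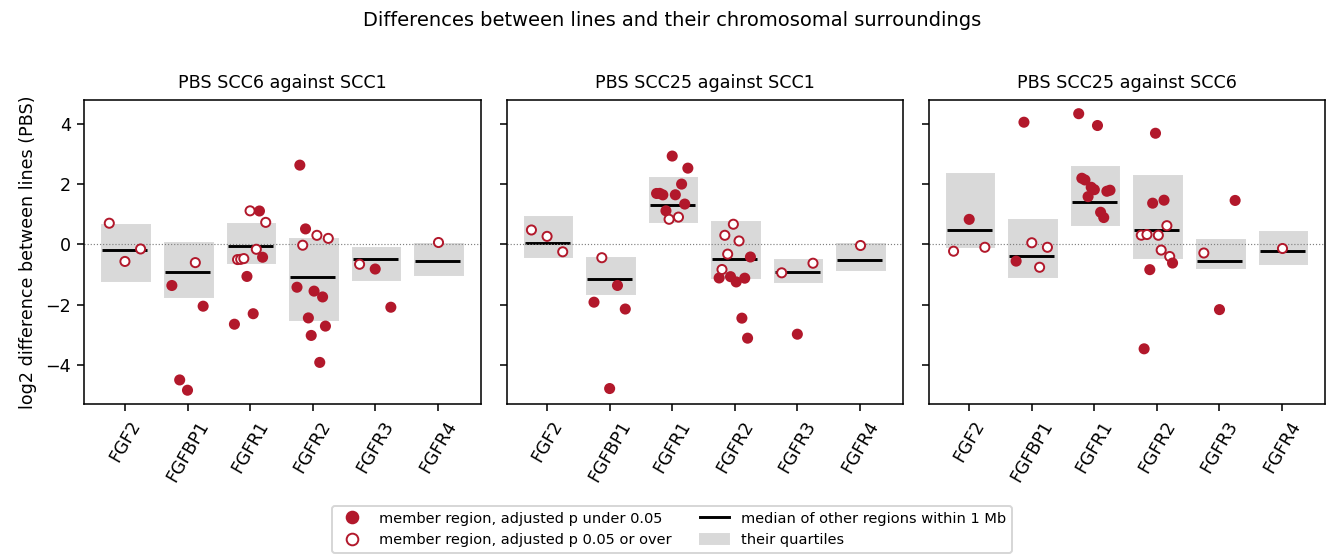
Log2 difference between the PBS libraries of 2 lines (y axis) for the regions of each gene (x axis), as filled points for an adjusted p under 0.05 and open points otherwise, with the median (line) and quartiles (grey box) of the other tested regions within 1 Mb. The FGFR1 points lie above 0 in both comparisons with SCC25, as do the surrounding medians of 1.29 and 1.40, and FGFR1 +3.2 kb (4.33) and FGFR1 +69.8 kb (3.94) lie above the upper quartile of 2.56 in SCC25 against SCC6. Both of these regions had peaks only in SCC25 libraries, so the region set holds them through SCC25.

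As a description of which promoters varied most alike over the 17 libraries, Pearson's r of the log2 signal was computed for each start region against the promoter regions of genes on other chromosomes. The FGFR1 start was most like TAF4B (r = 0.952), RNF125 (0.945) and BCL11B (0.944). The FGFBP1 start was most like DEGS1 (0.981), GART and SON, which share a promoter region (0.970), and SLC41A3 (0.970). The FGFR2 start was most like PJA2 (0.893), FAM114A2 with MFAP3 (0.880) and LMO7 (0.841), and the FGFR4 start like MLEC (0.863), ZNF771 (0.853) and RHPN1 (0.844). The 17 libraries come from 3 lines, so these values mainly rank promoters by their levels per line, and they are highest among 14789 to 14924 promoter regions compared.

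The rest of the pathway was read at promoter regions. Of 44 listed genes (other ligands, co-receptors and binding proteins, adaptors, feedback inhibitors and ETS targets), 35 had a promoter region and all 35 were tested. In SCC1, 5 were higher and 0 lower after cetuximab, shares near those of all promoter regions (13.6% called higher and 1.6% called lower). Of the 9 adaptors, which carry the signal from the receptor to RAS, 3 rose in SCC1, and the other calls were FGF11 and the decoy receptor FGFRL1. The promoter of SHC1 went from 208 to 223 with PBS to 350.4 to 469 with cetuximab (log2 0.88, SE 0.17, adjusted p = 2.78e-05), and that of GRB2 from 118 to 142 to 208 to 297 (log2 0.90, SE 0.20, adjusted p = 0.000427).

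In SCC6, 2 of the 35 promoters were higher and 3 lower, shares near those of all promoter regions (3.77% higher and 10.9% lower). Of the 8 tested co-receptors and binding proteins, 4 were called. Of the called heparan sulphate proteoglycans, which present FGF to its receptors, SDC2 and GPC1 rose and SDC1 fell. The decoy receptor FGFRL1 also fell. The SDC2 promoter went from 35.9 to 49.5 with PBS to 105 to 157 with cetuximab (log2 1.67, SE 0.20, adjusted p = 7.98e-09), and the GPC1 promoter from 148 to 229.6 to 255 to 295 (log2 0.59, SE 0.12, adjusted p = 0.000197). Among the 7 feedback inhibitors SPRED2 fell (log2 -0.51, SE 0.19, adjusted p = 0.0372). ETV1, ETV4 and ETV5, ETS genes that respond to this pathway, were not among the called promoters of any line. In SCC25 the smallest adjusted p was that of FGF1 (log2 -0.51, SE 0.16, adjusted p = 0.158), followed by FGF13 (log2 -0.42, adjusted p = 0.374), so that no promoter of the list was called there, beside 0.0551% of all promoter regions. The effect differed between lines at 5 of the 35 promoters, a share near the 13.5% of all promoter regions, among them SDC2 (interaction adjusted p = 1.12e-05) and FGFRL1 (0.00611), which was higher in SCC1 and lower in SCC6.

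The authors' peak lists were called in each library on its own. They come from the same reads, and the region set was joined from these peaks, so they are no independent readout. Of 663 pairs of an FGF-related region and a library, 222 (33.5%) had a peak. FGFR2 +18.6 kb was the only region with a peak in all 17 libraries, and 17 of the 39 regions had peaks in libraries of 1 line only. The same shares were not computed over all regions, so these counts do not show whether the FGF-related regions are unusual. FGFR2 +138.4 kb had a peak in 3 SCC6 cetuximab libraries and in no other library. FGFR2 +70.6 kb, FGF2 +16.4 kb, FGF2 +87.8 kb and FGFR1 +66.9 kb each had one in 2 SCC6 cetuximab libraries and in no other. FGFR2 -12.8 kb and FGFBP1 +20.1 kb had peaks only in the 2 SCC1 PBS libraries. Each of these regions is thus in the region set through the treatment group of its line in which it stood higher. Their peaks are therefore no separate support for the differences. The SCC6 cetuximab libraries include the deepest of the series, and a peak call depends on depth, whose part in these counts was not tested.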

How the data were processed

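The authors trimmed the reads with Trim Galore 0.5.0, aligned them to hg19 with Bowtie2 2.3.2, removed duplicates and mitochondrial reads (Picard 2.18, SAMtools 1.9), ran MACS2 per library for broad peaks and used DiffBind to join the peaks into 1 region set. The deposited signal per region is scaled: each library's values were whole multiples of 1 step, which gave back whole reads for 100% of values within 0.001. The deposited peak lists hold, from MACS2, the fold enrichment, the −log10 p and the −log10 q of each peak.

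Groups came from the labels. limma 3.58.1 (trend, robust, R 4.3.3) was fitted to log2(signal + 1) over all regions, leaving out the 25% with the lowest mean signal, with Benjamini-Hochberg adjustment and a threshold of 0.05 on the adjusted p. Each line's contrast used its own libraries, the line contrasts used the 8 PBS libraries, and an F-test gave the interaction. On simulated data, changes of 2 on the log2 scale were recovered for 58.5% of regions in SCC1, 83% in SCC6 and 83.5% in SCC25. Annotation was GENCODE release 44. edgeR 4.0.16 and DESeq2 1.42.0 on the recovered reads, other scalings, filters and left-out libraries were alternatives. A peak counted if it overlapped the region by 1 base. Regions described singly were, for each gene, the promoter region, the region of highest mean log2 signal outside it and, in each treatment contrast, at most 2 higher and 2 lower called regions of smallest adjusted p with groups that did not overlap. Pathway values are given, per line, for the 2 promoters of lowest adjusted p, and likeness for the 3 highest r. Other regions were named to list all called ones or after their values were seen. Members, lists and rules were chosen with earlier results of these data known.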

Additional observations from a re-analysis of the deposited data

Results flagged for a closer look

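The effect of cetuximab differed between the lines at 3 of 35 tested FGF-related regions, all of FGFR2, by the interaction F-test in limma. This share (8.57%) was below the 13.2% of all regions. At FGFR2 +44.5 kb (adjusted p = 0.00166) the log2 change was 1.25 in SCC6, 0.13 in SCC1 and -0.31 in SCC25, and the difference passed under all 25 alternatives run. At FGFR2 +20.7 kb (adjusted p = 0.0191) it was 1.48 in SCC6, -0.65 in SCC1 and -0.34 in SCC25, and the difference did not pass without SCC1 PBS replicate 3 (adjusted p = 0.0521), SCC6 cetuximab replicate 3 (0.0640) or SCC6 PBS replicate 3 (0.0520). At FGFR2 -12.8 kb (adjusted p = 0.0232) it was -1.61 in SCC1 and 0.95 in SCC25, and the difference did not pass without SCC25 PBS replicate 2 (adjusted p = 0.0960). The region set holds FGFR2 -12.8 kb only through peaks of the 2 SCC1 PBS libraries, where it stood high. The cause of these differences was not tested.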

How the results depend on the processing

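Of the FGF-related regions, SCC1 (3 called) had other counts under other settings: DESeq2 gave 1, and leaving out 1 library gave 1 (without cetuximab replicate 1 or PBS replicate 3) to 5 (without cetuximab replicate 2). In the fit of all lines (4 called) leaving out 1 library gave 2 (SCC1 PBS replicate 3) to 5, and limma without terms for the lines gave 0 (3 at an unadjusted p under 0.05). edgeR gave 4 there and DESeq2 5. The interaction (3 called) gave 9 after centring on the library median, 6 with edgeR, 5 with DESeq2, and 2 (without SCC6 PBS replicate 3 or SCC25 PBS replicate 2) to 5 (without SCC1 cetuximab replicate 3 or SCC1 PBS replicate 1) when 1 library was left out. Relative to the locus, SCC25 against SCC1 had 12 calls in place of 21 and SCC25 against SCC6 had 14 in place of 22, SCC6 against SCC1 had 22 in place of 20, and FGFR1 +86.1 kb turned to -0.10. Of 222 peaks at these regions, 136 covered at least 50% of the region and 80 had a −log10 q of 5 or more. SCC6 (12 called, 9 higher and 3 lower) ranged from 8 (5 and 3, all libraries in 1 fit) to 13, with 9 and 0 when the GC trend was removed, and SCC25 had 0 under each setting, edgeR and DESeq2 included (2 at an unadjusted p under 0.05 in limma). Over all regions, SCC1 had 9613 calls, 5676 with DESeq2, 4003 with the GC trend removed and 1933 to 12600 when 1 library was left out (1933 without PBS replicate 1, 3138 without PBS replicate 3, 5691 without cetuximab replicate 1). SCC6 had 23774, and 15139 with all libraries in 1 fit. SCC25 had 272, with 73 after centring, 157 after quantile normalization, 423 with pseudocount 5, 941 with edgeR, 31 with the GC trend removed, 39 with all libraries in 1 fit, and 8, 6 and 0 without PBS replicates 1, 2 and 3. The fit of all lines had 10511, and 1 without terms for the lines. The interaction had 11388, and 17120 with edgeR. Over 46 single region comparisons and 783 alternatives, 699 kept direction and call, 83 lost the call and 1 reversed. Except where stated, the cause was not tested.

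Libraries with the same replicate number did not deviate together (correlations of -0.042 to 0.026). This gave no sign that the numbers pair samples, but with so few libraries per group it cannot exclude it. With the replicate number as a block, 5 regions were called in SCC1, 12 in SCC6, 0 in SCC25, 2 over all lines and 3 in the interaction, and over all regions 744 in SCC25 and 4271 over all lines. SCC1, with at most 4171650 reads in regions per library and 2 PBS libraries, had the lowest recovery on simulated data of the 3 lines.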
